A study of Drosophila melanogaster with 107 samples.

Results

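Genes whose transcript level was followed from the third instar larva (L3) to 6 h after puparium formation, in mushroom body γ neurons labelled as expressing EcR-DN, are described here. Each gene had to reach a value of at least 10 in 2 or more of the 6 EcR-DN libraries of these stages, which 7094 of the 17050 genes in the perturbation table did. EcR-DN is a dominant-negative form of the ecdysone receptor, a protein that binds as the receptor does but blocks its activity. The comparison asks which stage changes still took place in neurons with the receptor blocked.

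The γ neurons were isolated from dissociated brains by sorting 1000 DsRed-positive cells per library, from flies of both sexes reared at 25 °C. EcR-DN had 3 libraries at L3 and 3 at 6 h, and its strain label reads EcR-DN with no driver or reporter named. The control strain was y,w/+; UAS-RedStinger/+;71G10/+, with 2 libraries at each of these stages. Libraries labelled E75 RNAi and Sox14 RNAi, 3 per stage each, and developmental γ neurons in a separately scaled table are set beside them. Nothing in the labels says that replicates came from separate animals or sorts, so the p-values measure the spread between libraries, which may be technical. In bulk libraries of sorted cells, fewer cells of a type and less RNA per cell cannot be told apart.

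Ecdysone is the steroid hormone whose pulses time moulting and metamorphosis in insects. It acts through a nuclear receptor made of EcR and its partner usp, which switches on a cascade of transcription factors that in turn drive and close later gene programs. In γ neurons this receptor is needed for pruning, the removal of larval axon and dendrite branches in the early pupa. Sox14, a transcription factor, and Mical, an actin-disassembling enzyme, are known in Drosophila neurons as part of this pruning pathway.

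Values are the authors' normalized read counts. Totals were 1959555 to 2218424 per EcR-DN library at these stages, 7714 to 8191 genes had a value above 0, and replicates correlated at 0.891 to 0.909 over tested genes on the log2 scale. The values of a list of 41 genes of mushroom body neuron (Kenyon cell) identity and learning summed to between 133104 and 147958 per library at L3 and between 117318 and 157834 at 6 h, with 2 of the genes at 0 throughout each stage. In control the sums were 185353 to 188137 at L3 and 90045 to 129077 at 6 h. By the test given below, 2 of the 38 followed members rose and 6 fell in EcR-DN, against 2.67% and 1.36% of all genes tested. In control 4 rose and 13 fell, against 4.04% and 5.24%. Without EcR-DN 6 h replicate A, 1 rather than 6 fell in EcR-DN. The library labelled Sox14 RNAi 0 h replicate A correlated at 0.913 with the Sox14 RNAi L3 libraries and at 0.887 with its own group, and replicate A labelled L3 at 0.913 with the 0 h libraries and at 0.899 with its own. They entered the estimate of the spread, and without them 411 genes rather than 344 were called in EcR-DN.

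From L3 to 6 h, 227 genes rose and 117 fell in EcR-DN neurons by the moderated test of limma at an adjusted p below 0.05. Over all 8656 genes tested, 2.67% rose and 1.36% fell. In control neurons 283 of the same genes rose and 437 fell, against 4.04% and 5.24% of all genes tested. The log2 change of value + 1 had a median of -0.09 and an SD of 1.06 over the 7094 genes in EcR-DN, and a median of 0.03 and an SD of 1.42 in control. Fewer genes were called in EcR-DN, although it had more libraries. Without EcR-DN 6 h replicate A the calls were 150 higher and 73 lower, and without replicate B 143 and 57. Leaving out EcR-DN L3 replicates A, B or C in turn left 61, 75 or 50 genes that fell.

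**Figure D1:**
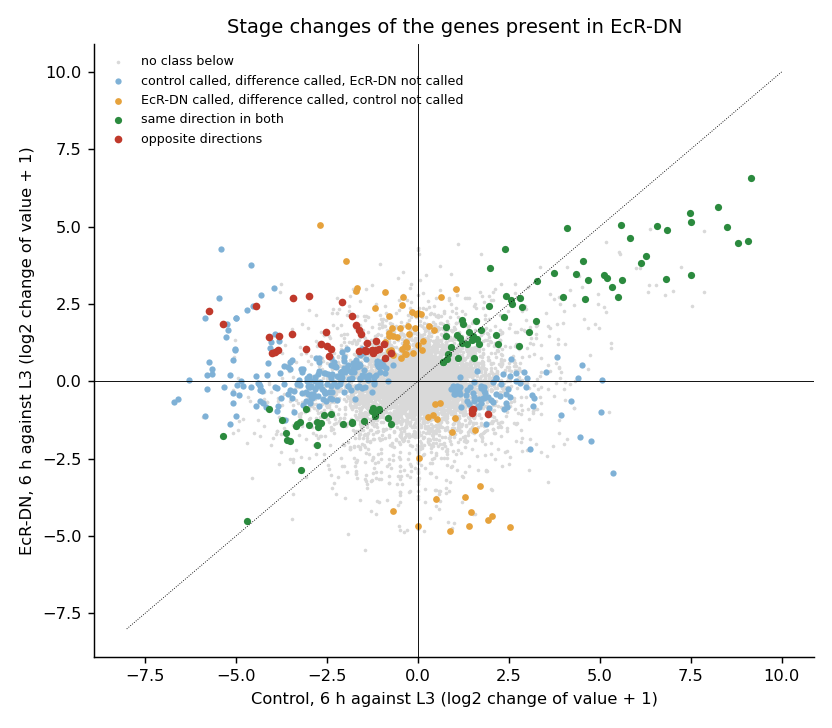
Log2 change of value + 1 from L3 to 6 h in control (horizontal) and EcR-DN (vertical) for 7094 genes, each point a gene, with the dotted line marking equal change. The 64 genes that rose in both lie at the upper right and the 34 that fell in control and rose in EcR-DN at the upper left, and the 211 and 75 genes called in control with a called difference but not in EcR-DN lie nearer the horizontal axis.

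The 283 genes that rose in control held 64 that also rose in EcR-DN, which was 22.6% of the first set and 28.2% of the 227. The 437 that fell in control held 31 that also fell in EcR-DN, which was 7.09% of the first set and 26.5% of the 117. Both shares lie above the 2.67% and 1.36% of all tested genes called in these directions. A further 34 genes that fell in control rose in EcR-DN, which was 7.78% of 437. Another 4 genes that rose in control fell in EcR-DN, and the remaining 215 that rose and 372 that fell in control were not called in EcR-DN. The difference of the stage change, EcR-DN minus control, was tested in the same fit, and it was higher for 308 and lower for 117 genes, against 3.57% and 1.48% of all genes tested. It was called for 211 of 372 genes that fell in control alone and for 75 of 215 that rose in control alone. For the other 161 and 140 genes neither a change in EcR-DN nor a difference from control was shown.

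Some genes of the ecdysone response rose in EcR-DN where they fell in control. Of 29 members of a list of ecdysone targets and receptor components, 6 rose and none fell in EcR-DN, while 3 rose and 15 fell in control, and the difference was higher for 12 and lower for 2. Of all genes tested 2.67% rose and 1.36% fell in EcR-DN, and 4.04% and 5.24% in control. The difference was higher for 3.57% and lower for 1.48%. The list's median log2 change was 0.19 in EcR-DN and -1.60 in control, beside medians of -0.09 and 0.03 over all genes followed.

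EcR itself, the gene of the receptor, was 1249, 1186 and 1208 in the L3 libraries of EcR-DN and 2610, 2674 and 2148 at 6 h. In control it was 4007 and 5478 at L3 and 308 and 347 at 6 h. The EcR-DN libraries were therefore low where control was high and high where control was low, with no overlap. The log2 change was 1.02 ± 0.19 (SE, adjusted p = 0.0004) in EcR-DN and -3.84 in control, a difference of 4.86 ± 0.30 (adjusted p = 1.1e-15). Whether reads of the transgene count toward EcR is not known from the sources used here.

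Sox14 was 495, 728 and 518 at L3 and 1722, 1488 and 1512 at 6 h in EcR-DN, and 6368 and 7474 followed by 471 and 503 in control. Every 6 h library of EcR-DN was above every L3 library, and the reverse held in control. The difference of the log2 changes was 5.28 ± 0.36 (adjusted p = 3.5e-14). Mical, whose product takes actin filaments apart, was 223, 245 and 257 at L3 and 900, 757 and 570 at 6 h in EcR-DN. In control it was 2241 and 3121, then 491 and 427, so the 6 h libraries of EcR-DN lay above those of control and its L3 libraries far below. Its log2 change was 1.59 ± 0.25 in EcR-DN (adjusted p = 2.4e-05) and -2.53 in control.

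Eip74EF, an ETS-domain transcription factor of the early ecdysone response, was 424, 449 and 376 at L3 and 1424, 1053 and 944 at 6 h in EcR-DN. In control it was 4123 and 4911, then 289 and 243. It rose by 1.43 ± 0.28 in EcR-DN (adjusted p = 0.00068) on the log2 scale, and the control change was -4.08. vri, a bZIP repressor known from the circadian clock, rose by 1.14 ± 0.22 (adjusted p = 0.00086) against a control change of -2.49. The last of the 6 that rose was ImpL1, a gene named for its induction by ecdysone, which rose in control too and was at 0, 1 and 3 at L3 and 109, 98 and 61 at 6 h in EcR-DN, and so was followed through 6 h alone.

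Other ecdysone genes were not called in EcR-DN. Eip75B, a nuclear receptor of the cascade, was 4832, 4506 and 5442 at L3 and 6500, 7346 and 5982 at 6 h in EcR-DN, and 25956 and 33983, then 6318 and 8483, in control. At 6 h the libraries of both genotypes overlapped, and at L3 those of EcR-DN lay far below. The change was 0.42 ± 0.22 (adjusted p = 0.38) in EcR-DN, and the difference from control was 2.44 (adjusted p = 2.7e-06). br, a zinc finger factor of the larval-to-pupal switch, was 6825, 6189 and 6342 at L3 and 5241, 4999 and 4300 at 6 h in EcR-DN, and 2934 and 2624, then 229 and 515, in control. Blimp-1, a transcriptional repressor, had 151, 107 and 110 at L3 in EcR-DN, against 1944 and 2128 in control, and 93, 183 and 159 at 6 h, against 143 and 91. Eip93F, a transcription factor of the later pupal program, was 369, 191 and 274 at L3 and 495, 288 and 259 at 6 h in EcR-DN, while control went from 328 and 213 to 1814 and 2210. The difference was called for br (2.59, adjusted p = 5.8e-05), Blimp-1 (4.34, adjusted p = 2.6e-07) and Eip93F (-2.61, adjusted p = 0.0029). The receptor partner usp changed by -0.07 ± 0.26 in EcR-DN (adjusted p = 0.97), with 330 to 408 at L3 and 340 to 369 at 6 h.

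**Figure D2:**
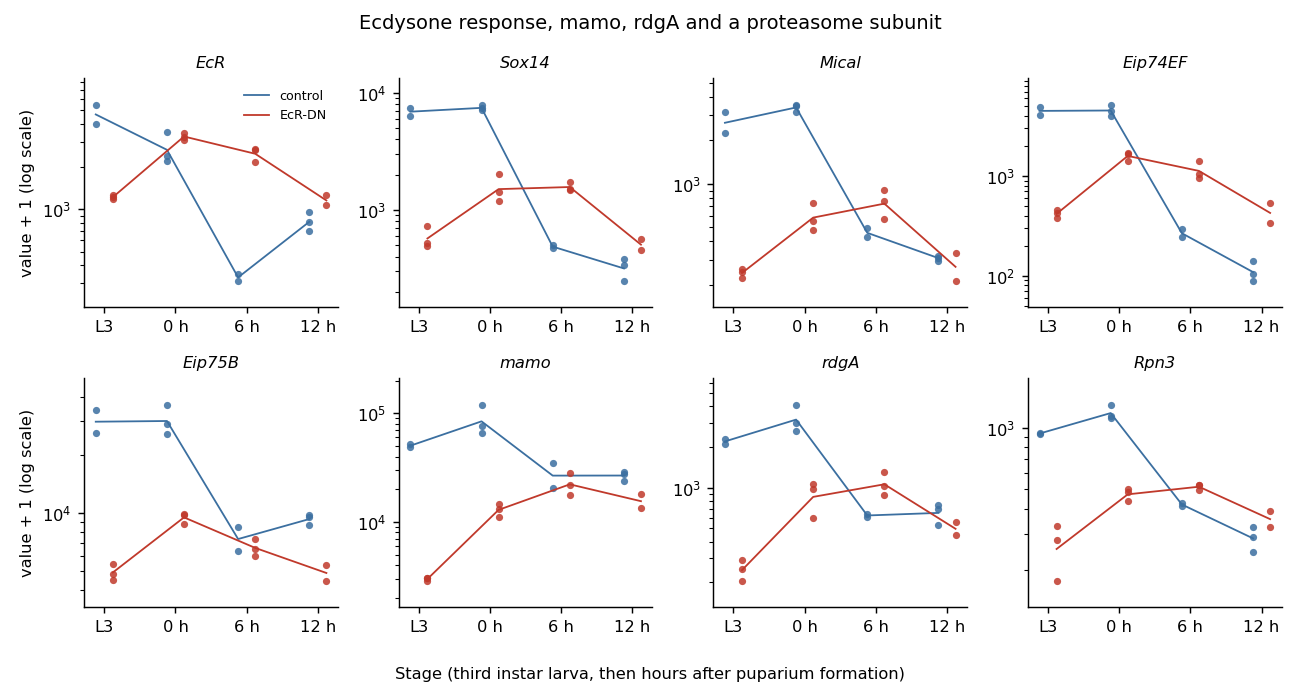
Value + 1 on a log scale for 8 genes at L3, 0, 6 and 12 h in control (blue) and EcR-DN (red), each point a library and each line through the means of the log2 values. In every panel control is lower at 6 h than at L3, a change that was not called for mamo, and EcR-DN starts below control at L3.

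The 34 genes that fell in control and rose in EcR-DN had log2 changes from 0.74 to 2.75 in EcR-DN, with a median of 1.20, and from -5.75 to -0.74 in control, with a median of -2.23. Their mean values ran from 14.3 to 1221 in EcR-DN at L3 and from 223 to 7649 in control at L3, and the direct comparison at L3 had a median log2 difference of -2.71. At 6 h the median difference was 0.92. These comparisons at 1 stage use the same libraries as the stage changes and are not separate evidence. The 2 stages are only part of the course of the 34 genes. For 23 of them the control mean was higher at 0 h than at L3. For 32 the EcR-DN mean was lower at 12 h than at 6 h. For 33 the highest EcR-DN stage mean lay below the highest control stage mean. From L3 to 0 h, 15 of the 34 rose in EcR-DN.

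The set joins signalling, adhesion and degeneration genes with the ecdysone factors. rdgA, a diacylglycerol kinase, was 291, 248 and 203 at L3 and 879, 1307 and 1039 at 6 h in EcR-DN, and 2100 and 2314, then 609 and 637, in control. msn, a Ste20-family kinase, was 488, 677 and 536 at L3 and 1994, 1929 and 1447 at 6 h, and in control 4140 and 5407, then 1218 and 1971. Ect4, the fly Sarm protein that drives axon degeneration after injury, was 7, 30 and 11 at L3 and 116, 91 and 83 at 6 h, and in control 320 and 202, then 74 and 13. For all 3 genes the EcR-DN L3 libraries were the lowest of the EcR-DN and control libraries named, apart from 1 control library of Ect4 at 6 h that overlapped them. The differences of the log2 changes were 3.93 for rdgA (adjusted p = 2.2e-07), 3.27 for msn (adjusted p = 1.9e-07) and 5.73 for Ect4 (adjusted p = 7.9e-06). The immunoglobulin-domain adhesion gene klg rose by 1.20 ± 0.26 (adjusted p = 0.0028) and the receptor gene Tl by 1.20 ± 0.23 (adjusted p = 0.00049), against control changes of -2.66 and -0.92. Without EcR-DN 6 h replicate B, 22 genes rather than 34 moved in opposite directions in this way.

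In the reverse direction, 4 genes rose in control and fell in EcR-DN, which was 1.41% of 283 and close to the 1.36% of all genes tested that fell. They were pros, Pka-R1, Spn and HmgD. The homeodomain factor pros was 17884, 10962 and 15816 at L3 and 8758, 7591 and 6844 at 6 h in EcR-DN, and 5492 and 3618, then 11774 and 13125, in control. Without EcR-DN 6 h replicate C, 0 genes had this pattern, and the adjusted p of pros was 0.111.

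Among the 227 genes that rose, 129 were not called in control, and for 41 of these the difference was called. The median log2 change of those 41 was 1.67 in EcR-DN and -0.40 in control, and their median log2 difference from control at L3 was -2.50. One gene of this group was mamo, a BTB zinc finger factor known for Kenyon cell identity. It was 3024, 2857 and 3069 at L3 and 21858, 28168 and 17723 at 6 h in EcR-DN, and 48955 and 51657, then 20345 and 34999, in control. The EcR-DN libraries started far below control at L3 and overlapped it at 6 h. The log2 change was 2.89 ± 0.43 in EcR-DN (adjusted p = 1.2e-05) and -0.91 in control (adjusted p = 0.38), a difference of 3.81 (adjusted p = 0.00012). tok, a tolloid-family metalloprotease, went from 21, 15 and 17 to 106, 196 and 153 in EcR-DN and was 243 and 271, then 91 and 70, in control (difference 4.67, adjusted p = 0.00018). CG9005, which the RefSeq annotation names atos, had 102 to 169 at L3 and 684, 905 and 595 at 6 h in EcR-DN, and 2053 and 2573, then 824 and 1232, in control.

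A list of 38 regulators of neuronal remodeling had 5 genes that rose and none that fell in EcR-DN, against 1 and 2 in control. Of all genes tested 2.67% rose and 1.36% fell in EcR-DN, and 4.04% and 5.24% in control. All counts of the list but the 5 rises lie near these shares. Besides Sox14 and Mical, the 5 included S6k, the ribosomal protein S6 kinase, and hdc, a regulator of tracheal branching and neuronal remodeling. S6k was 741, 611 and 637 at L3 and 1338, 1167 and 1214 at 6 h in EcR-DN, below both control libraries at L3 (1796 and 1652). hdc was 5601, 4584 and 6039 at L3 and 12638, 12664 and 11042 at 6 h, and 15417 and 20262, then 17557 and 17619, in control. The nuclear receptor Hr51, the zinc finger factor ab, the adhesion protein Fas2 and the RNA-binding proteins Imp and Syp, all on lists of this kind, had adjusted p of 0.37 to 0.91 in EcR-DN. Likewise chinmo, a temporal identity factor, was 3302, 2543 and 2826 at L3 and 2747, 2667 and 1681 at 6 h (adjusted p = 0.91).

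Proteasome subunits had higher values at 6 h than at L3 in EcR-DN. Of 32 subunits of this protein-degrading complex, all 32 had a positive log2 change in EcR-DN, with a median of 0.49, while 2 had one in control, where the median was -0.74. Over all 7094 genes followed, 3190 had one in EcR-DN and 3644 in control. The test called 5 higher and none lower in EcR-DN, none higher and 11 lower in control, and 17 differences, all higher in EcR-DN. Of all genes tested 2.67% were higher and 1.36% lower in EcR-DN, and 4.04% and 5.24% in control. The difference was higher for 3.57% of them, and none lower of 32 in EcR-DN lies near the share. Rpn3, a regulatory subunit, was 176, 330 and 279 at L3 and 522, 494 and 521 at 6 h in EcR-DN, and 936 and 932, then 414 and 424, in control. At 6 h its EcR-DN libraries lay above those of control, and at L3 far below. Its log2 change was 1.01 ± 0.23 (adjusted p = 0.0046) and the difference 2.17 (adjusted p = 4.3e-05). Without EcR-DN L3 replicate A the adjusted p of Rpn3 was 0.0896, and 1 subunit rather than 5 was called.

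Other genes changed the same way in both genotypes, among them genes nearly absent at L3. Osi7, a member of the Osiris family of small membrane proteins of cuticle-forming epithelia, was 2, 2 and 2 at L3 and 299, 527 and 142 at 6 h in EcR-DN. In control it was 0 and 2, then 781 and 1256. TwdlE, a Tweedle-family cuticle protein, was 2, 1 and 1 at L3 and 70, 125 and 160 at 6 h in EcR-DN, and 0 and 0, then 351 and 263, in control. Both genes were low in every L3 library and high in every 6 h library, and lower at 6 h in EcR-DN than in control. Both passed the minimum of 10 through the 6 h libraries alone, the stage where they are high, so their rise is given as values only, and their differences from control were not called (adjusted p = 0.69 and 0.53).

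Of 15 followed members of cuticle and tracheal families, 3 rose in EcR-DN and 8 in control, against 2.67% and 4.04% of all genes tested. All 3 that rose in EcR-DN were followed through their 6 h libraries alone. Over 55 genes of these families in the table, the sum per library was 294 to 428 at L3 and 1283 to 1861 at 6 h in EcR-DN, and 282 to 317 and 4390 to 5673 in control. At 6 h 19 of the 55 were at 0 in all libraries of each genotype. These are products of cuticle-secreting and tracheal cells, and the part of such cells in the result was not tested. Sums of 18 blood cell markers were 93 to 131 at L3 and 142 to 214 at 6 h in EcR-DN, and 192 to 196 and 208 to 360 in control. Those of 28 glial markers were lower at 6 h in EcR-DN, with 984 to 1090 and then 545 to 760. In control they were higher at 6 h, with 631 to 672 and then 1176 to 1307. The part of glial cells in the differences between genotypes was not tested. RYa-R, the RYamide receptor, was 7, 3 and 4 at L3 and had a mean of 122 at 6 h in EcR-DN. It was followed through its 6 h libraries alone, the stage where it is high, so its call is no support for a rise. The cuticle gene TwdlT, with a mean of 121 at 6 h, lies within RYa-R on the same strand in the annotation. The reads of these genes cannot be told apart. The call of RYa-R was lost without any 1 of the 6 EcR-DN libraries (adjusted p = 0.0556 to 0.108).

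Signalling, guidance and stress genes were also among the 64. Hsp67Bc, a small heat shock protein, was 413, 363 and 377 at L3 and 2049, 2435 and 2094 at 6 h in EcR-DN, and 1458 and 2128, then 10346 and 11040, in control. CG8910, from a list of activity-induced genes, was 180, 160 and 133 at L3 and 1091, 975 and 867 at 6 h, and 521 and 389, then 2507 and 2788, in control. The log2 changes of these genes were 2.51 and 2.63 in EcR-DN and 2.60 and 2.55 in control, and the levels were lower in EcR-DN at both stages by their means. The differences from control had SEs of 0.50 and 0.50 and adjusted p of 0.97 and 0.98, which does not show equal change. Sema-2b, a secreted guidance cue, was 505, 460 and 380 at L3 and 1338, 1666 and 1220 at 6 h in EcR-DN, and rose by 1.65 ± 0.29 (adjusted p = 0.00018) against 1.74 in control. CngA, a cyclic nucleotide-gated channel subunit, went from 0, 9 and 23 to between 138 and 167 in EcR-DN and from 3 and 34 to 726 and 626 in control. CngA was followed because of its 6 h libraries, the stage where it is high, so its call is no support for a rise.

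For all 64 genes the mean at 6 h was lower in EcR-DN than in control, and for 47 the log2 change was the smaller one. The median changes were 2.65 in EcR-DN and 2.80 in control, and the difference was called for 2 of the 64. Of the 64, 21 reached 10 in 6 h libraries only and were followed because of that stage. CngA, outside these 21, was followed because of its 6 h libraries as well. Without EcR-DN 6 h replicate B, 40 genes rather than 64 rose in both genotypes. In the developmental table, 60 of the 64 were tested and all 60 rose from L3 to 6 h, where 12% of all genes tested rose. The 64 were picked by their rise in control, so the rise in developmental γ neurons repeats that choice. It is no separate support for the EcR-DN rises. With E75 RNAi 57 of the 64 rose and with Sox14 RNAi 27, against 8.47% and 3.79% of all genes tested.

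**Figure D3:**
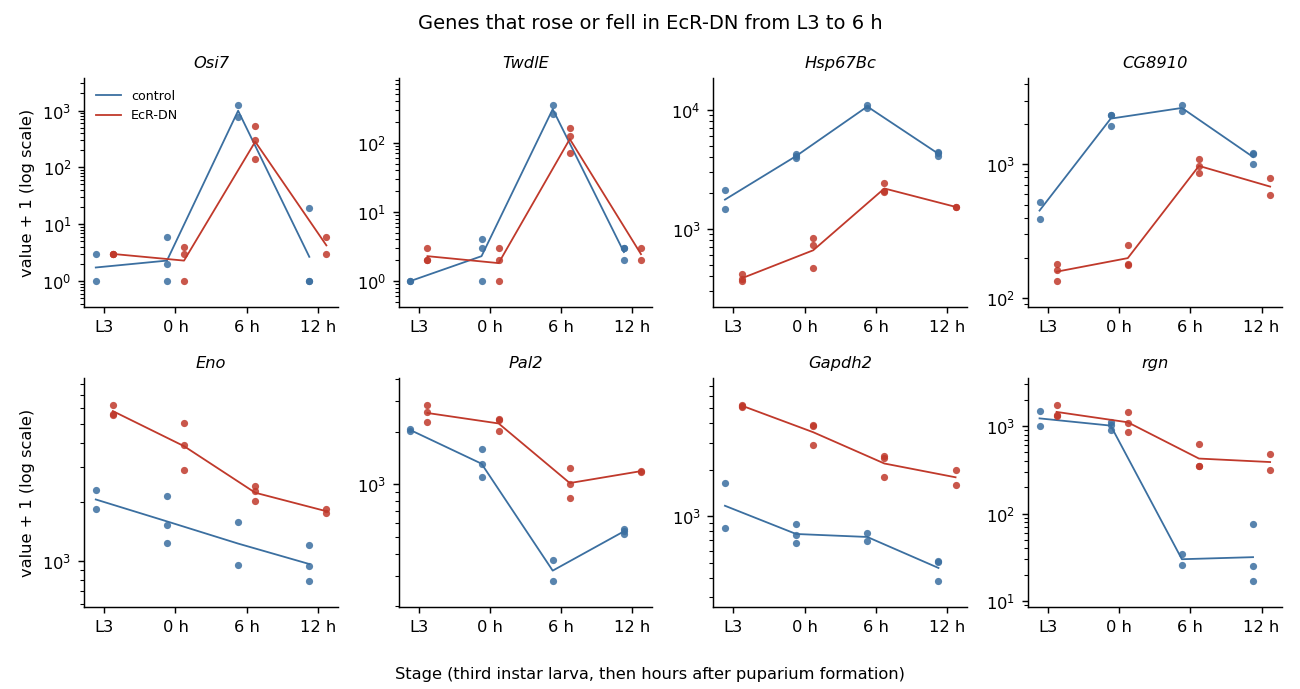
Value + 1 on a log scale for 8 genes that moved in EcR-DN, at L3, 0, 6 and 12 h in control (blue) and EcR-DN (red), each point a library and each line through the means of the log2 values. Osi7 and TwdlE are low at L3, 0 h and 12 h and high at 6 h, Hsp67Bc and CG8910 are higher at 6 h than at L3 in both genotypes, and the 4 genes of the lower row fall from L3 to 6 h in EcR-DN.

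Some glycolytic genes fell in each genotype, not always the same ones, while of 59 respiratory chain subunits 1 fell in EcR-DN and none in control. Of 14 glycolytic enzymes and related genes, 6 fell and none rose in EcR-DN, and 9 fell and none rose in control, with median log2 changes of -1.31 and -1.49. Of all genes tested 1.36% fell in EcR-DN and 5.24% in control, and the 1 of 59 lies near the first share. The difference was called for 1 of the 14, PyK, which codes for pyruvate kinase (2.40, adjusted p = 0.012), and it was not called without control L3 replicate B or 6 h replicate C (adjusted p = 0.151 and 0.0554). Eno, enolase, was 5544, 6228 and 5615 at L3 and 2415, 2011 and 2254 at 6 h in EcR-DN, and 2304 and 1826, then 1578 and 946, in control. Gapdh2, a glyceraldehyde-3-phosphate dehydrogenase, was 5267, 5215 and 5109 at L3 and 2390, 1792 and 2472 at 6 h, and 1633 and 837, then 687 and 784, in control. In both genes every EcR-DN library of L3 lay above every other library given here. In control the Gapdh2 library of 837 at L3 lay close to that of 784 at 6 h. Their log2 changes in EcR-DN were -1.38 ± 0.20 (adjusted p = 6.4e-06) and -1.24 ± 0.23 (adjusted p = 0.00031). At L3, 9 of the 14 were higher in EcR-DN than in control and none was lower, against 3.84% and 4.4% of all genes tested. Without EcR-DN L3 replicate B the number that fell in EcR-DN was 2 rather than 6.

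Falls shared with control were smaller in EcR-DN for 29 of the 31 genes, and the median changes were -1.32 in EcR-DN and -2.74 in control. Pal2, which finishes the amidation of neuropeptides, was 2272, 2842 and 2575 at L3 and 1243, 834 and 1004 at 6 h in EcR-DN, and 2058 and 2020, then 278 and 366, in control. rgn was 1301, 1746 and 1339 at L3 and 628, 349 and 349 at 6 h, and 1478 and 1011, then 25 and 34, in control. Both genotypes fell from about the same L3 level, and the control libraries fell further. The differences were 1.34 for Pal2 (adjusted p = 0.0039) and 3.57 for rgn (adjusted p = 1.9e-05), and without control 6 h replicate A the difference of Pal2 had an adjusted p of 0.0542. Of the 31, 30 fell in developmental γ neurons, where 10.5% of all genes tested fell, and 27 with E75 RNAi and 22 with Sox14 RNAi, where 11.2% and 5.31% fell. As the 31 were picked by their fall in control, the developmental falls repeat that choice and are no separate support. Without any 1 of the 6 EcR-DN libraries, 9 to 14 genes rather than 31 fell in both genotypes.

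Lists of membrane excitability and signalling genes held many falls in control. Of all genes tested 5.24% fell and 4.04% rose in control, and 2.67% rose and 1.36% fell in EcR-DN. The difference was higher for 3.57% of them and lower for 1.48%. The EcR-DN counts of the 34 channels below and the rises of the 35 receptors lie near these shares. Of 34 voltage-gated and related channels, 16 fell in control and none in EcR-DN, where 1, the potassium channel Task6, rose, and the difference was higher for 10. Of 35 neurotransmitter receptors, 16 fell and 2 rose in control, 2 fell and 1 rose in EcR-DN, and the difference was higher for 13 and lower for 1. Of 23 neuropeptides, their receptors and processing genes, 12 fell and 2 rose in control. In EcR-DN 2 of the 23 fell and 2 rose, and the difference was higher for 9. The EcR-DN rises in these 2 lists were of genes that reached 10 in 6 h libraries only, so they are no support for a rise. The median log2 changes of these lists were -0.94, -1.03 and -2.67 in control and -0.20, -0.02 and 0.02 in EcR-DN. Task6 lost its call without any 1 of EcR-DN L3 replicates A, B or C or 6 h replicate B, with an adjusted p of 0.0646 to 0.297.

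Examples below were chosen after their values were seen. Shab, a delayed-rectifier potassium channel, was 911, 1072 and 877 at L3 and 2154, 1102 and 811 at 6 h in EcR-DN, and 1804 and 2614, then 45 and 40, in control. The difference of its log2 changes was 6.03 ± 0.46 (adjusted p = 4e-13). para, the sodium channel of action potentials, was 4429, 4792 and 4857 at L3 and 4333, 4113 and 3825 at 6 h in EcR-DN, and 2983 and 2283, then 227 and 487, in control. Oamb, an octopamine receptor of the mushroom body, was 277, 250 and 141 at L3 and 356, 404 and 282 at 6 h, and 557 and 895, then 38 and 104, in control. sNPF, the short neuropeptide F precursor made by Kenyon cells, was 3457, 3271 and 2943 at L3 and 2206, 1991 and 1967 at 6 h, and 2806 and 2895, then 109 and 183, in control. In these 4 genes the control libraries of 6 h lay below every EcR-DN library. sNPF had lower values at 6 h in all 3 EcR-DN libraries, but its change of -0.65 ± 0.28 was not called (adjusted p = 0.24). rut, the adenylyl cyclase of olfactory learning, had 1601, 1904 and 1610 at L3 and 1481, 1685 and 1369 at 6 h in EcR-DN, while control had 2529 and 2800, then 136 and 220 (difference 3.76, adjusted p = 3.3e-07).

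Of the 75 genes that rose in control with a called difference and no call in EcR-DN, the median log2 change was 2.01 in control and -0.38 in EcR-DN. Inx2, a gap junction protein, was 175, 163 and 336 at L3 and 318, 327 and 279 at 6 h in EcR-DN, and 56 and 75, then 1286 and 1754, in control. Dat, the dopamine transporter, was 140, 84 and 136 at L3 and 105, 69 and 59 at 6 h, and 54 and 17, then 581 and 583, in control. EcR-DN libraries of both genes were above control at L3 and below it at 6 h. The differences were -3.98 ± 0.71 (adjusted p = 0.00012) and -4.84 ± 0.80 (adjusted p = 3.6e-05). Among 60 axon guidance and adhesion genes, 9 rose and none fell in EcR-DN, 8 rose and 5 fell in control, and the difference was higher for 6 and lower for 5. Of all genes tested 2.67% rose and 1.36% fell in EcR-DN, and 4.04% and 5.24% in control. The difference was higher for 3.57% and lower for 1.48%. Without EcR-DN 6 h replicate A, 4 rather than 9 of the 60 rose. kuz, an ADAM metalloprotease of that list, was 1086, 1466 and 1550 at L3 and 2586, 2611 and 2293 at 6 h in EcR-DN (0.88 ± 0.18, adjusted p = 0.00099), and its difference from control was not called without control 6 h replicate A (adjusted p = 0.0518).

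**Figure D4:**
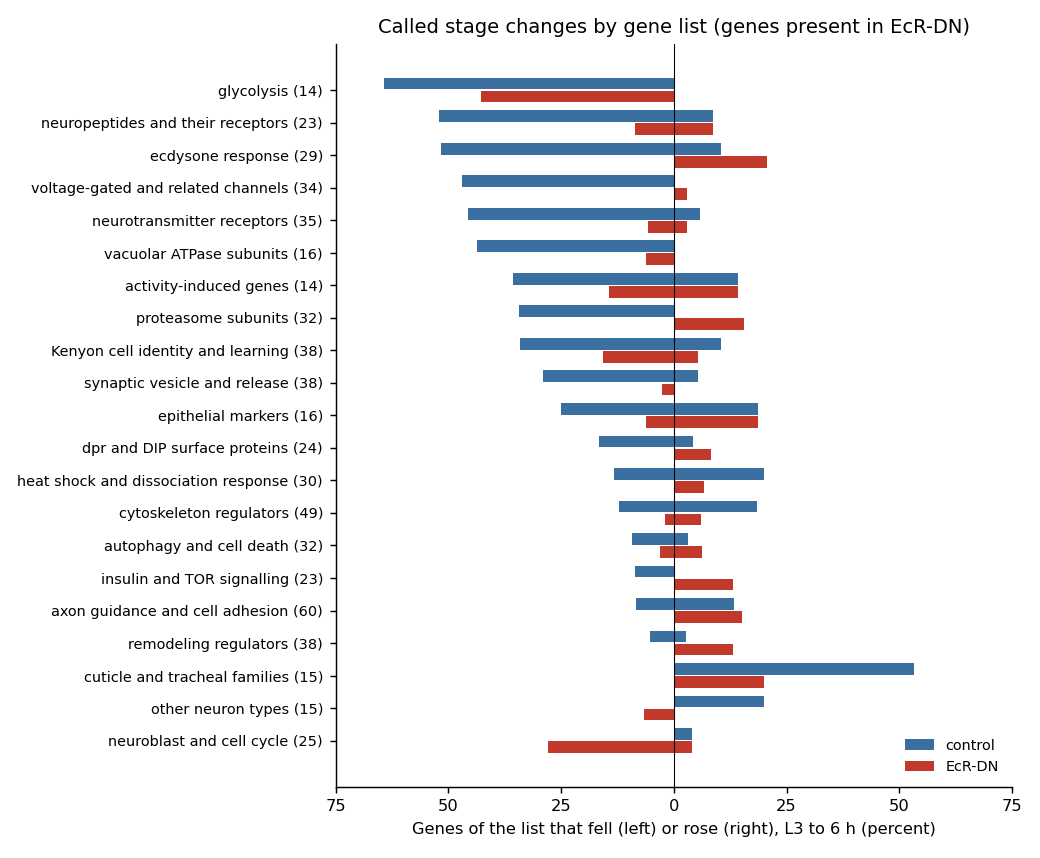
Percent of each gene list's members that fell (left) or rose (right) from L3 to 6 h in control (blue) and EcR-DN (red), with the number of genes followed in brackets, for lists with 3 or more calls in either genotype. Many ecdysone response, channel and proteasome genes fall in control and none is called lower in EcR-DN, where 1.36% of all genes tested fell. Some glycolytic genes fall in each genotype. Of the 7 neuroblast list genes that fell in EcR-DN, 6 were followed only because of their L3 libraries, so that bar is no support for a fall of the list.

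Some transcripts of dividing neural precursors fell in EcR-DN. Of 25 genes of a neuroblast and cell cycle list, 7 fell and 1 rose in EcR-DN, while none fell and 1 rose in control. Of all genes tested 1.36% fell and 2.67% rose in EcR-DN, and 5.24% and 4.04% in control. Of the 7, 6 were followed only because their L3 libraries reached 10, the stage where they are high, so their number is no support for a fall of the list. mira, which carries fate determinants in dividing neuroblasts, was 81, 46 and 127 at L3 and 0, 1 and 2 at 6 h in EcR-DN, and 19 and 2, then 7 and 0, in control. wor, a Snail-family factor of neuroblasts, was 61, 35 and 22 at L3 and 0, 0 and 2 at 6 h, and 0 in all 4 control libraries of these stages. ase, a proneural factor of neuroblasts, was 19, 8 and 32 at L3 and 0 in the 3 libraries at 6 h, and 0 and 5, then 0 and 0, in control. The L3 libraries of EcR-DN held low levels of all 3, and its 6 h libraries were at or near 0. All 3 passed the minimum of 10 through L3 alone, so their falls in EcR-DN are given as values only. The difference from control passed the threshold for wor (adjusted p = 0.038) and not for mira or ase (adjusted p = 0.27 for each). With control at 0, the difference of wor is its EcR-DN fall again, so it is no separate support. It was not called without any 1 of EcR-DN L3 replicates A or B or 6 h replicates A or B. The same held without any 1 of the 4 control libraries, and these adjusted p were 0.0529 to 0.12. Without EcR-DN 6 h replicate B the count of the list that fell was 3 rather than 7.

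Over the 30 genes of that list other than brat and pros, which γ neurons hold at high levels, the sum per library was 674 to 1155 in EcR-DN at L3, 309 to 621 at 0 h, 103 to 200 at 6 h and 115 to 144 at 12 h. In control it was 92 to 305 at L3 and 180 to 194 at 6 h, and with E75 RNAi 584 to 708 at L3 and 111 to 270 at 6 h. By the labels, EcR-DN and E75 RNAi were thus the genotypes with the higher sums at L3. With Sox14 RNAi the sum was 206 to 342 at L3 and 144 to 1007 at 0 h. Replicate A of each of those Sox14 RNAi groups correlated better with the other stage than with its own. Markers of 23 genes of other neuron types summed to 3143 to 3819 at L3 and 2263 to 3058 at 6 h in EcR-DN, and to 1935 to 2124 and 2219 to 3002 in control. The part of other cells in the EcR-DN falls was not tested.

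Another transcript that fell was the noncoding RNA CR43283, which the RefSeq annotation names cherub. It was 31245, 18394 and 29034 at L3 and 1672, 890 and 1860 at 6 h in EcR-DN, and 1648 and 749, then 733 and 644, in control. The 3 EcR-DN L3 libraries were the only ones of these 10 above 1860. The change was -4.18 ± 0.61 (adjusted p = 8.9e-06) in EcR-DN and -0.69 in control, and with E75 RNAi and in developmental γ neurons it fell too, by 4.66 and 3.32 on the log2 scale. The difference from control was -3.49 (adjusted p = 0.021), and without control L3 replicate C its adjusted p was 0.179. It was also not called without control 6 h replicates A or C, EcR-DN L3 replicate A or EcR-DN 6 h replicate B. kek5, a leucine-rich repeat membrane protein, was 502, 402 and 505 at L3 and 125, 59 and 78 at 6 h in EcR-DN, and 92 and 119, then 83 and 137, in control. Set, a histone chaperone, was 708, 567 and 942 at L3 and 208, 205 and 288 at 6 h, and 260 and 115, then 368 and 303, in control (difference -2.59, adjusted p = 0.0011). The activity-induced nuclear receptor Hr38 was 3481, 3412 and 4076 at L3 and 327, 596 and 617 at 6 h in EcR-DN, and 112 and 56, then 50 and 11, in control. Its change of -2.88 ± 0.88 missed the threshold (adjusted p = 0.0521), although the libraries did not overlap.

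**Figure D5:**
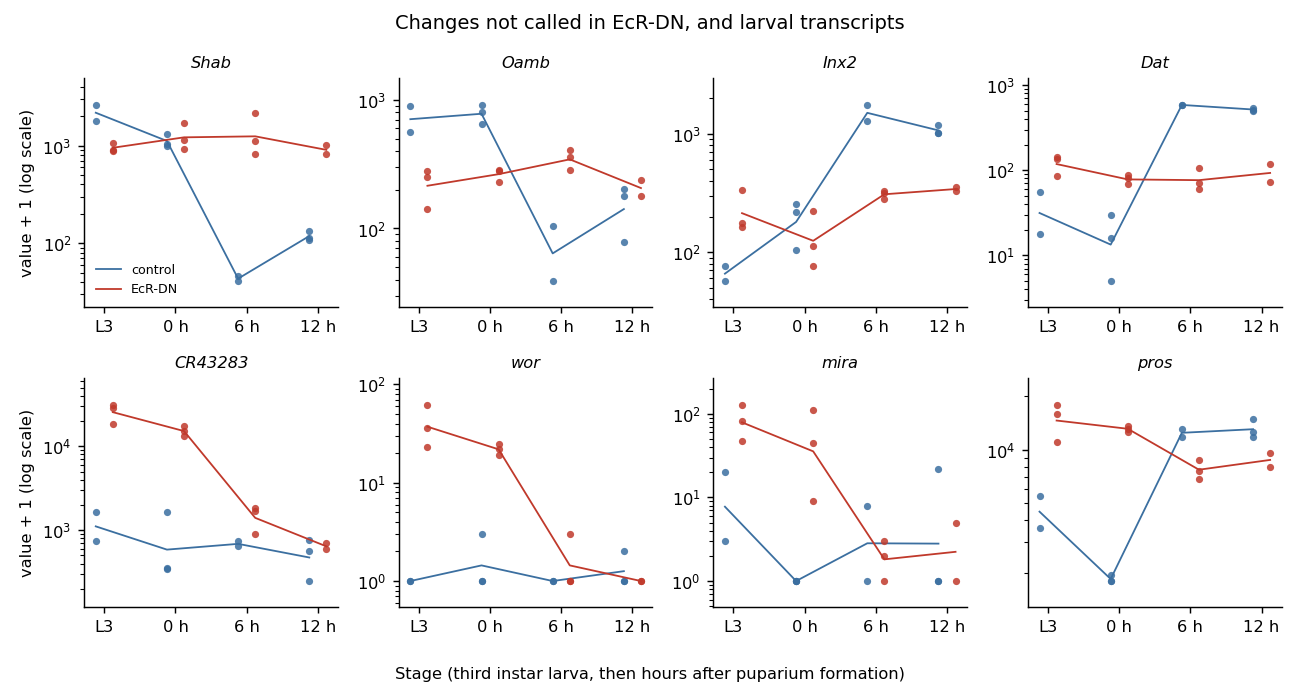
Value + 1 on a log scale for 8 genes at L3, 0, 6 and 12 h in control (blue) and EcR-DN (red), each point a library and each line through the means of the log2 values. Shab and Oamb fall and Inx2 and Dat rise in control from L3 to 6 h with no called change in EcR-DN, while CR43283, wor, mira and pros fall in EcR-DN, which starts above control at L3.

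The libraries of 0 h, the start of puparium formation, divide the interval. From L3 to 0 h 30 genes rose and 2 fell in EcR-DN, against 0.347% and 0.0231% of all genes tested, and from 0 h to 6 h 66 rose and 30 fell, against 0.762% and 0.451%. These steps reuse the L3 and 6 h libraries. The 30 included EcR, Sox14, Mical, Eip74EF, Eip75B, vri, mamo, rdgA and msn. EcR had 3259, 3102 and 3455 at 0 h, above its values of 6 h, and 1060 and 1249 at 12 h. Sox14 had 1186, 2015 and 1432 at 0 h and 565 and 453 at 12 h. Both were thus higher at 0 h than at L3 and lower again at 12 h, while in control Sox14 had a mean of 7445 at 0 h.

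Osi7 was 3, 2 and 0 at 0 h and 5 and 2 at 12 h in EcR-DN, so that among EcR-DN libraries its values above 5 stood at 6 h only. TwdlE had the same course, with 2, 1 and 0 at 0 h and 2 and 1 at 12 h. In control the means of both genes were at most 2 at 0 h and at most 6 at 12 h. CG8910 was 175, 249 and 178 at 0 h and rose by 2.29 from 0 h to 6 h (adjusted p = 1.8e-05), and Hsp67Bc by 1.73 (adjusted p = 0.0015). The 2 genes that fell from L3 to 0 h, named after their values were seen, were the adhesion gene Nrt, with means of 991.7 and 467.7, and CG1552, with means of 22.0 and 0.

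The 34 genes of opposite direction were also followed with E75 RNAi and Sox14 RNAi. E75 is the nuclear receptor gene Eip75B. With E75 RNAi 13 of the 34 rose and 5 fell, and with Sox14 RNAi 1 rose and 22 fell, while 21 fell in developmental γ neurons. Of all genes tested 8.47% rose and 11.2% fell with E75 RNAi, 3.79% and 5.31% with Sox14 RNAi, and 10.5% fell in developmental γ neurons, so that the 5 that fell with E75 RNAi and the 1 that rose with Sox14 RNAi (14.7% and 2.94% of 34) lie near the share of all genes. The stage change in EcR-DN differed from that with E75 RNAi for 13 of the 34 and from that with Sox14 RNAi for 27. Over all genes followed, the stage change was higher in EcR-DN than with E75 RNAi for 264 and lower for 124, against 3.14% and 1.59% of all genes tested. Against Sox14 RNAi 293 were higher and 125 lower, against 3.48% and 1.61%. These comparisons use the same EcR-DN libraries as the comparison with control. The 34 were picked by their fall in control, so their falls in developmental γ neurons are no separate support.

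The filter left some genes near its edge. For 73 genes the second-highest of the 6 values was exactly 10, and their 6 values summed to 22 to 74. For 112 genes that were left out it was 9, with sums of 19 to 64. Values of at least 10 were confined to the 6 h libraries for 150 of the 7094 genes and to the L3 libraries for 204. Of these, 31 of the 150 (20.7%) were called higher and 38 of the 204 (18.6%) lower. At least 38 of the 117 falls and 31 of the 227 rises are thus of genes admitted through the stage where they are high. Both stages had at least 2 such libraries for 5968. These included 187 of the 227 rises and 72 of the 117 falls. For the other calls, a stage had fewer than 2 such libraries.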

How the data were processed

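Polyadenylated RNA of 1000 sorted cells per library was sequenced by MARS-seq, a 3′-end method, per the labels' protocols. Each deposited value is a score, namely a read number per gene that the authors scaled between libraries by an unnamed method and rounded. HISAT 0.1.5, HOMER and bcl2fastq are listed in the submitters' processing notes, without their roles. No source used here names the build, so no coordinates are printed. The spacing of small values put the reads near 1870509 and 1971166 in 2 of the 6 EcR-DN libraries, and the depth of the other 4 is unknown.

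Scaled values do not bear a count model, so log2(value + 1) was fitted with limma 3.58.1 in R 4.3.3 (43 libraries, 16 group means, empirical Bayes with a trend, statmod 1.5.0). Tests were two-sided over 8656 genes with at least 10 in at least 2 libraries, with Benjamini-Hochberg adjustment and 0.05 as the threshold. The developmental table (52 γ neuron libraries, 7717 genes) was fitted alone. The procedure was tested on simulated data.

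Members, the 32 gene lists and the tests were chosen with earlier results of these data known. Candidates for naming were the 12 largest rises and falls in EcR-DN (mean of 50 or more in the higher stage, stages not overlapping), the leading genes of each class of agreement with control, all 38 genes of opposite direction, and at most 5 genes per list with 3 or more calls. Only some of them are described, and Shab, para, Oamb, sNPF, rut, Blimp-1, Eip93F and PyK were added after their values were seen.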

Additional observations from a re-analysis of the deposited data

Results flagged for a closer look

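The stage change from L3 to 6 h differed between EcR-DN and another genotype by the test of the difference itself (limma, adjusted over all genes tested). It was higher in EcR-DN than in control for 308 genes and lower for 117, higher than with E75 RNAi for 264 and lower for 124, and higher than with Sox14 RNAi for 293 and lower for 125. The comparisons share the EcR-DN libraries.

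Differences of the log2 change, EcR-DN minus control, were called for 41 of the genes described. Among ecdysone response and remodeling genes they were 5.51 for Eip74EF, 5.28 for Sox14, 4.86 for EcR, 4.35 for Blimp-1, 4.12 for Mical, 3.63 for vri, 2.59 for br, 2.44 for Eip75B, 1.18 for hdc, 1.05 for S6k and -2.61 for Eip93F. Channels, receptors and signalling genes had 6.03 (Shab), 5.73 (Ect4), 4.15 (Oamb), 3.93 (rdgA), 3.76 (rut), 3.68 (sNPF), 3.27 (msn), 3.26 (Task6), 2.77 (para), 2.11 (Tl), -2.38 (Pka-R1), -3.98 (Inx2) and -4.84 (Dat). Proteases, adhesion, degradation and metabolic genes had 4.67 (tok), 3.85 (klg), 2.40 (PyK), 2.17 (Rpn3), 1.34 (Pal2), 1.24 (kuz) and -2.50 (kek5). The other genes had 3.81 (mamo), 3.57 (rgn), 3.55 (CG9005), 2.25 (brat), -2.40 (pros), -2.52 (HmgD), -2.59 (Set), -2.96 (Spn), -3.49 (CR43283) and -4.69 (wor). Because wor was followed through L3 alone and was 0 in control, its difference repeats its EcR-DN fall and is no separate support. The difference of hdc lost its call in each of the 10 sets that left out 1 library, with an adjusted p of 0.0503 to 0.27. The difference of kek5 lost it in 6 of them, with an adjusted p of 0.054 to 0.168, that of S6k without control L3 replicate B or 6 h replicate A (0.0788 and 0.127), that of kuz without control 6 h replicate A (0.0518), and that of brat without control L3 replicate C or 6 h replicate A (0.0504 and 0.0609).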

How the results depend on the processing

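Of the 344 genes called in EcR-DN, 720 in control and 425 with a difference, 319 to 402 were called in EcR-DN with a pseudocount of 0.5 or 4, a filter of 20 in 3 libraries, quantile or median-of-ratios rescaling, rescaling to the same total or adjustment over the 7094 genes alone. The largest losses came from modelling the spread. With robust variances and no trend 77 genes fell, 8 fell in both genotypes, 20 fell in control and rose in EcR-DN, and 0 did the reverse. With only the libraries of the groups compared, 148 genes rose in EcR-DN and 0 were called in control by limma (4 libraries, 1386 at an unadjusted p below 0.05). With no filter on low values 19 genes fell in both genotypes and 2 rose in control and fell in EcR-DN, and with rescaling to the same total 20 fell in both. That rescaling moved the median log2 change in control from 0.03 to 0.20. Replicate letters were shared between stages, but same-letter deviations correlated at -0.0192, -0.00865 and -0.0341, so the letters do not pair the libraries. With the replicate block 338 genes were called in EcR-DN (227 higher, 111 lower), 683 in control and 404 with a difference, and within the 6 libraries alone the replicate block left 0 called by limma, with 0 higher and 0 lower (1141 at an unadjusted p below 0.05). Without Sox14 RNAi replicate A at L3 and 0 h, chosen after seeing the data, 57 rather than 32 genes were called from L3 to 0 h. Leaving out 1 library at a time gave 200 to 337 calls in EcR-DN (143 to 223 higher, 50 to 114 lower), 485 to 717 in control and 302 to 421 differences. It gave 40 to 52 genes that rose and 9 to 24 that fell in both, 22 to 29 that fell in control and rose in EcR-DN, 0 to 5 of the reverse, and 138 to 213 falls and 40 to 75 rises called in control with a difference but not in EcR-DN. The cause of these shifts was not tested. None of the called EcR-DN changes of named genes turned direction under any alternative run, but uncalled ones did, such as Shab without EcR-DN 6 h replicate A (0.39 to -0.01) and Hr51 without replicate C (0.11 to -0.08).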
